A study of Mus musculus with 32 samples.

Results

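Brown adipose tissue was compared between the middle and the later part of the light phase. The 4 libraries of Zeitgeber time (ZT) 9 were set against the 4 libraries of ZT6, which makes 8 of the 32 libraries of the series. The libraries were chosen by their labelled time point alone, and 15505 genes with enough reads were tested. ZT counts the hours from lights on, so ZT6 and ZT9 both lie in the light phase, when mice are mostly inactive.

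The study followed gene expression in interscapular brown adipose tissue (iBAT) through the day, at 8 time points 3 h apart with 4 mice each. Both groups were untreated male C57BL/6J mice, an inbred wild-type strain, aged 10 weeks, on a light:dark cycle and a chow diet, not fasted and housed in mild cold. By the labels they differed in the time of killing and the lane, and each mouse gave 1 stranded library from snap-frozen tissue. ZT6 libraries ran on sequencing lane 2 together with ZT0 and ZT3, and ZT9 libraries on lane 3 together with ZT12 and ZT15, so that lane and time cannot be told apart in this comparison. For that reason the steps on either side, ZT3 to ZT6 within lane 2 and ZT9 to ZT12 within lane 3, are given for some of the genes, and the calls with lane as a factor for all called genes that are described. These steps share libraries with the comparison of ZT9 and ZT6 and are given as values only.

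Brown adipocytes burn fatty acids in mitochondria to make heat, and take much of that fuel from circulating lipoproteins through the enzyme lipoprotein lipase. Like most cells they hold a circadian clock. In it BMAL1 and CLOCK, or NPAS2 in place of CLOCK, bind E-box sequences and switch on the Period and Cryptochrome genes, whose products later repress BMAL1 and CLOCK. REV-ERB receptors repress the gene for BMAL1 and ROR receptors activate it, and the DBP, TEF and HLF factors carry the rhythm to other genes through D-box sequences.

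The 8 libraries held 16648905 to 17839159 counts and 20232 to 21016 detected genes each. At that depth 3 counts in a library corresponded to 0.166 to 0.181 CPM (counts relative to the library total, scaled by TMM), which covers counting error only. Mitochondrially encoded genes took 24.3% ± 2.52 of the counts at ZT6 and 25.1% ± 3.22 at ZT9 (SD, n = 4 each, exact permutation test, two-sided, p = 0.857). Ucp1, the uncoupling protein that defines brown adipocytes, lay at 2128, 1701, 2706 and 3622 CPM at ZT6 and at 2658, 4318, 2057 and 2858 CPM at ZT9. Summed over the 10 brown adipocyte markers, the libraries ranged from 4346 to 7114 CPM at ZT6 and from 4827 to 7559 CPM at ZT9. Markers of other cells differed between libraries. The 13 skeletal muscle markers, all detected, summed to 2084 CPM in replicate 2 of ZT6, 2003 CPM in replicate 1 of ZT9 and 2141 CPM in replicate 4 of ZT9, and to 56.7 to 82.6 CPM in the other 5 libraries. The 10 macrophage markers summed to 361.6 CPM in replicate 3 of ZT9, against 93.1 to 161 CPM at ZT6 and 81.4 to 120.5 CPM in the other ZT9 libraries. The 7 white adipocyte markers, of which Lep is 1 and 2 were at 0 throughout, summed to 47 to 74.5 CPM at ZT6 and to 65.7 to 273 CPM at ZT9. The part of these transcripts in the results was not tested beyond leaving libraries out. In whole tissue, a change in the number of cells of a type and a change in the RNA per cell cannot be told apart.

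**Figure D1:**
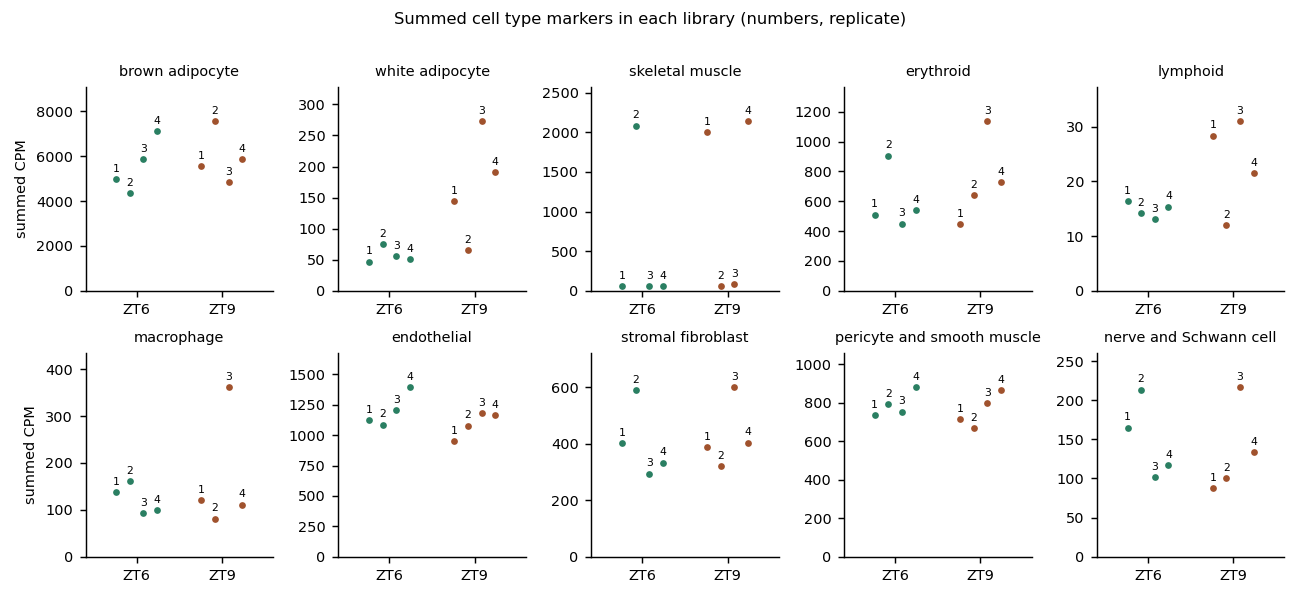
Summed CPM (y axis) of the members of 10 cell type marker lists in each ZT6 library (green) and each ZT9 library (brown), with the replicate number at each point. Skeletal muscle markers are high in replicate 2 of ZT6 and replicates 1 and 4 of ZT9, and macrophage markers in replicate 3 of ZT9.

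In the 3 h between ZT6 and ZT9 303 of the 15505 genes tested differed, or 1.95% (edgeR quasi-likelihood test over all 32 libraries, Benjamini-Hochberg adjusted p under 0.05, which is the sense of "called" throughout). Of these, 167 were higher at ZT9 (1.08%) and 136 lower (0.877%). Changes were mostly small: the median size was 0.53 on the log2 scale, and in 56 genes, 26 higher and 30 lower, the means differed at least 2-fold. In 254 of the 303 the mice of the groups did not overlap, while 6.69% of all tested genes showed no overlap (2.99% higher and 3.7% lower at ZT9). The median log2 fold change over all tested genes was 0.00346. Within lane 2 the step from ZT3 to ZT6 gave 322 calls (2.08%). Within lane 3 the step from ZT9 to ZT12 gave 0 calls (0%) with edgeR, although 1047 genes had an unadjusted p under 0.05, the DESeq2 Wald test called 24 and edgeR without the filter on low counts 7.

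The count differed between fits and with single mice left out. Fitted on the 8 libraries alone, edgeR called 15 genes, all of them among the 303. A 24 h cosine with lane as a factor, the fit in which lane could be a term, called 35 genes for the fitted difference between ZT9 and ZT6 (0.226%), of which 10 were among the 303. Each lane held neighbouring time points, so in this fit lane can take up part of a change with time. Leaving out 1 library gave from 101 genes (without replicate 4 of ZT9) to 350 genes (without replicate 4 of ZT6), with 151 without replicate 1 of ZT6, 182 without replicate 2 of ZT6 and 180 without replicate 3 of ZT6. Without the 3 libraries with muscle transcripts 41 genes were called, 34 of them among the 303. This fit had only 3 mice at ZT6 and 2 at ZT9, so smaller groups and muscle transcripts cannot be told apart in it. Of the 303 genes, 69 stayed past the threshold whichever single library was left out.

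For the 57 called genes described with their values, the calls outside the full fit are given here once. With lane as a factor 7 of them kept call and direction, namely Npas2, Clock, Per2, Per3, Dbp, Dtx4 and Clpx, while Gm10800 and Gm26870 were called in the opposite direction. In the 8 libraries alone 14 kept their call, namely Per2, Cldn5, Trib3, Fst, Gm9761, Gm10800, Gm26870, Prodh, Papss2, Sfxn2, Plekhg1, Cbfa2t3, Dynll1 and B230354K17Rik. Without the 3 libraries with muscle transcripts 16 did, namely Arntl, Per2, Per3, Ciart, Dbp, Hlf, Igfals, Dtx4, Anp32a, Rflnb, Gm9761, Gm10800, Gm26870, Prodh, Papss2 and Sfxn2. Any other of the 57 genes lost its call in the respective fit.

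**Figure D2:**
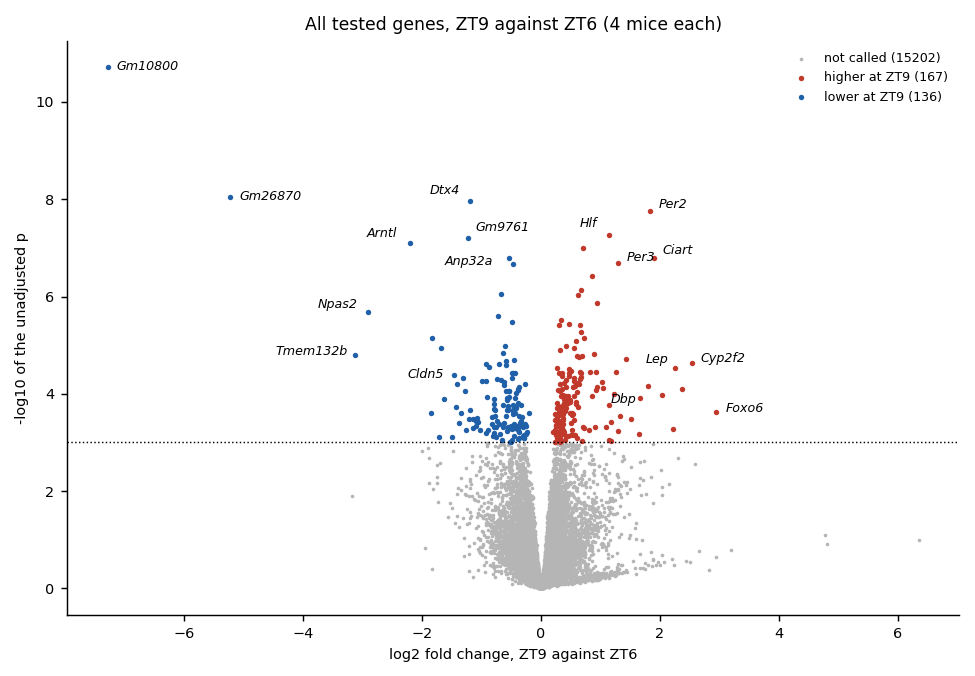
Log2 fold change of ZT9 against ZT6 (x axis) and -log10 of the unadjusted p (y axis) for the 15505 tested genes, with genes called higher at ZT9 in red (167) and lower in blue (136). The dotted line marks the largest unadjusted p among called genes, and clock genes such as Per2, Hlf, Arntl and Npas2 are among the points with the smallest p on each side.

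Clock genes made up 12 of the 25 called genes on the pathway lists. All 23 clock genes listed were tested: 3 of 5 activators were lower at ZT9, and 4 of 10 repressors and 5 of 8 output genes were higher. No activator was called higher and no repressor or output gene lower, beside 1.08% of all tested genes called higher and 0.877% lower. The median log2 fold change was -0.47 for activators, 0.58 for repressors and 0.88 for output genes.

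Among the activators Arntl (ENSMUSG00000055116, chr7:113207465-113314126), the gene for BMAL1, had 5.25, 4.44, 5.22 and 7.97 CPM in the mice of ZT6 and 2.56, 0.984, 0.886 and 0.544 CPM in those of ZT9. Every ZT9 mouse lay below every ZT6 mouse, and the means fell from 5.72 ± 1.55 to 1.24 ± 0.899 CPM (SD, n = 4 each), a 4.6-fold lower level (log2 fold change -2.19, SE 0.30, adjusted p 0.000173, edgeR). Without replicate 1 of ZT9 the log2 fold change of Arntl was -2.81. Npas2 (ENSMUSG00000026077, chr1:39193731-39363236), which can stand in for CLOCK, was close to the limit of detection at ZT9. It had 19, 16, 27 and 24 counts at ZT6 and 2, 4, 5 and 0 counts at ZT9, again without overlap (log2 fold change -2.90, SE 0.49, adjusted p 0.00175). From the summed counts the level was 7.77-fold lower at ZT9, with an exact 95% interval from 4.13 to 16.2 that covers counting error only. Clock (ENSMUSG00000029238, chr5:76209868-76304792) itself changed less. Its mice had 57.8, 58.1, 68.9 and 64.7 CPM at ZT6 and 43.7, 55.5, 38.8 and 41.7 CPM at ZT9, a 1.39-fold lower mean (log2 fold change -0.47, SE 0.10, adjusted p 0.00954). Rora, the gene of a ROR receptor, was not called, with a log2 fold change of 0.12 (adjusted p 0.742).

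The fall of the activators was already under way within lane 2. From ZT3 to ZT6 Arntl dropped from a mean of 27.5 to 5.72 ± 1.55 CPM (log2 fold change -2.26, adjusted p 4.04e-06), and it then lay at 1.15 CPM at ZT12. Npas2 changed by -1.91 (adjusted p 0.00348) and Clock by -0.36 (adjusted p 0.0452) on the log2 scale over the same step. With lane as a factor in the cosine fit, the fitted difference from ZT6 to ZT9 was -2.04 for Npas2 (adjusted p 0.000386), -0.34 for Clock (adjusted p 0.00577) and -0.84 for Arntl (adjusted p 0.139), so that Arntl lost its call there. In the fit of the 8 libraries alone the adjusted p was 0.0888 for Arntl, 0.0774 for Npas2 and 0.174 for Clock.

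Of the repressors, Per2 (ENSMUSG00000055866, chr1:91415982-91459324) gave the clearest rise. The ZT6 mice were tightly grouped at 13.8, 14.7, 13.7 and 14.2 CPM, and the ZT9 mice had 31.5, 40.1, 64.4 and 64 CPM. The lowest ZT9 mouse was thus well above the highest ZT6 mouse, and the mean was 3.55-fold higher (log2 fold change 1.83, SE 0.23, adjusted p 6.83e-05). Per2 is the clock gene called in the 8 libraries alone (adjusted p 0.0397), and it was also called with lane as a factor (log2 fold change 0.98, adjusted p 0.0314). Per3 (ENSMUSG00000028957, chr4:151003652-151044665), the third Period gene, went from 101, 94.6, 68.5 and 49.6 CPM to 125, 170.2, 209 and 264 CPM without overlap (log2 fold change 1.29, SE 0.19, adjusted p 0.000283), and kept its call with lane as a factor (0.76, adjusted p 0.00106).

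Ciart (ENSMUSG00000038550, chr3:95878503-95882251), also known as CHRONO, encodes a protein that binds BMAL1 and represses it. Its mice had 5.31, 4.38, 3.59 and 2.28 CPM at ZT6 and 12.2, 8.57, 17.6 and 19.5 CPM at ZT9. It rose 3.71-fold, the highest ratio of means among the clock genes (log2 fold change 1.89, SE 0.27, adjusted p 0.00025), but with lane as a factor the fitted difference was 0.39 (adjusted p 0.716). Cry2, a Cryptochrome gene, lay at 56, 48.1, 45.9 and 40.7 CPM at ZT6 and 54.7, 67.5, 81.1 and 86.1 CPM at ZT9, with 1 ZT9 mouse inside the ZT6 range (log2 fold change 0.60, SE 0.13, adjusted p 0.0137), and without replicate 4 of ZT9 the adjusted p was 0.0694.

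The other repressors were not called. Per1 was at 49.5, 54.9, 29.6 and 32.6 CPM at ZT6 and 46.9, 66.9, 98.5 and 117 CPM at ZT9 and overlapped (log2 fold change 0.98 (adjusted p 0.0871)). Cry1 did not overlap, with 8.24, 10.5, 7.29 and 6.96 CPM against 11, 11.4, 12.6 and 13.7 CPM, and missed the threshold narrowly (0.56 (adjusted p 0.0525)), after a drop within lane 2 from ZT3 to ZT6 (-0.81, adjusted p 0.00419). The REV-ERB genes stood on opposite sides of 0 without a call, Nr1d1 at -0.34 (adjusted p 0.496) and Nr1d2 at 0.56 (adjusted p 0.109). For the DEC genes the values were 0.12 (adjusted p 0.949) for Bhlhe40 and 0.35 (adjusted p 0.67) for Bhlhe41.

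Within lane 2 Per2 rose from ZT3 to ZT6 by 1.09 (adjusted p 0.0155) and Ciart by 1.43 (adjusted p 0.00966) on the log2 scale, while Per3 had 0.66 (adjusted p 0.0606) and Cry2 -0.24 (adjusted p 0.427). From ZT9 to ZT12, within lane 3, the log2 fold changes were 0.73, 0.30, 0.15 and -0.04 in the same order, none called. Mean levels at ZT12 were 83.2 CPM for Per2, 213 CPM for Per3 and 17.8 CPM for Ciart.

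Clock output genes formed the list with the largest share of calls. Dbp (ENSMUSG00000059824, chr7:45705088-45710203), the founding member of the PAR bZIP factors that bind D-boxes, had 104, 111, 67.8 and 47.5 CPM at ZT6 and 130.1, 138, 213 and 202 CPM at ZT9. The groups did not overlap, and the mean was 2.07-fold higher (log2 fold change 1.05, SE 0.23, adjusted p 0.013), although without replicate 3 of ZT6 or replicate 4 of ZT9 the adjusted p was 0.0508 to 0.0554. Within lane 2 Dbp had already risen from 14.5 CPM at ZT3 (log2 fold change to ZT6 2.50, adjusted p 3.77e-07), and it kept its call with lane as a factor (1.28, adjusted p 5.56e-05).

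Its relatives Tef and Hlf moved the same way. Tef (ENSMUSG00000022389, chr15:81802421-81826863) had 266, 231, 208 and 156 CPM at ZT6 and 315, 344, 428 and 444 CPM at ZT9 (log2 fold change 0.83, SE 0.17, adjusted p 0.00954). Hlf (ENSMUSG00000003949, chr11:90336536-90390895) had 49.1, 38.5, 50.03 and 43.6 CPM at ZT6 and 70.3, 76.8, 122 and 131 CPM at ZT9, 2.21-fold higher in the mean (log2 fold change 1.14, SE 0.15, adjusted p 0.000163). Neither overlapped, and neither was called with lane as a factor (adjusted p 0.0701 and 0.374). Nfil3, the repressor that competes for the same D-boxes, was at 3.7, 3.13, 8.47 and 8.69 CPM at ZT6 and 4.66, 6.6, 7.14 and 6.89 CPM at ZT9 (0.07 (adjusted p 0.941)), after a fall from 22.3 CPM at ZT3 (log2 fold change -1.89, adjusted p 0.000112).

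Usp2, a ubiquitin-specific protease under clock control, went from 28.5, 23.2, 19 and 16.4 CPM to 38.3, 46, 55.7 and 68.5 CPM, 2.4-fold in the mean (log2 fold change 1.26, SE 0.26, adjusted p 0.00954). Wee1, the kinase that holds back entry into mitosis, went from 7.34, 7.45, 6.28 and 3.23 CPM to 12.1, 10.1, 11.3 and 12.7 CPM (log2 fold change 0.93, SE 0.19, adjusted p 0.00954). In both genes every ZT9 mouse exceeded every ZT6 mouse. With lane as a factor the fitted difference was 0.28 for Usp2 and 0.13 for Wee1. Nampt, the rate-limiting enzyme of NAD salvage, had no overlap but was not called (0.32 (adjusted p 0.207)), and Noct (-0.04 (adjusted p 0.983)) overlapped widely.

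**Figure D3:**
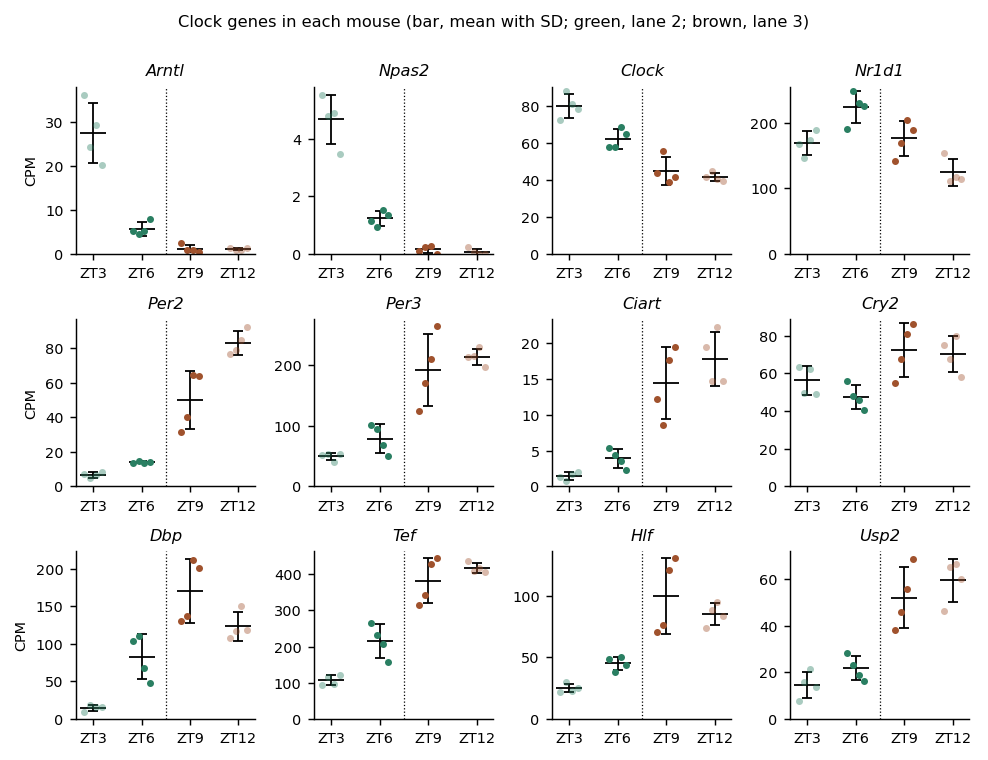
CPM (y axis) of 12 clock genes in each mouse at ZT3, ZT6, ZT9 and ZT12 (x axis), with mean and SD, lane 2 in green, lane 3 in brown and a dotted line between the lanes. Arntl and Npas2 fall from ZT3 to ZT6 and again to ZT9, whereas Per2, Per3, Ciart, Tef and Hlf are higher in every ZT9 mouse than in every ZT6 mouse.

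The promoters of clock genes were searched for the sequences these factors bind, in windows from 250 bases before to 50 after each start (RefSeq, GRCm38.p6), on both strands. Of the 23 clock genes 19 were found in the promoter table. The letters searched were CACGTG for an E-box, TTATGTAA or TTACGTAA for a D-box, TAGGTCA for a ROR element, TGACGTCA for a cAMP response element and GAANNTTC for a heat-shock element, and they occurred in 7.15%, 1.06%, 2.61%, 1.79% and 7.86% of all 32851 windows. An E-box stood in 5 of the 19 clock genes, namely Ciart, Tef, Per1, Cry1 and Bhlhe41, a D-box in 1 (Per3) and a ROR element in 2 (Arntl and Nfil3). Hlf held a cAMP response element. Among all genes called higher at ZT9 with a promoter entry, 21 of 128 (16.4%) held an E-box, against 9 of 99 (9.09%) called lower and 11.4% of all tested genes. For the D-box the shares were 2.34% of genes called higher, 0% of those called lower and 0.862% of all tested genes, and for the ROR element 3.12%, 5.05% and 2.23%. For the cAMP response element they were 1.56%, 2.02% and 3.43%, and for the heat-shock element 7.03%, 4.04% and 6.98%. These counts were not tested. A match is a stretch of letters and no measured binding. Stretches are shown for called genes, written 5′ to 3′ on the strand of the gene with the matched letters in capitals. They lie upstream of the start at chr3:95882254-95882363 (Ciart, minus strand, 3 E-boxes), at chr4:151044786-151044885 (Per3, minus strand, 2 D-boxes) and at chr15:81811234-81811333 (Tef, plus strand, 1 E-box before the downstream start, inside an intron of the longer transcripts). Another E-box of Tef, not shown, begins at position -127 from the upstream start of those transcripts.
Ciart: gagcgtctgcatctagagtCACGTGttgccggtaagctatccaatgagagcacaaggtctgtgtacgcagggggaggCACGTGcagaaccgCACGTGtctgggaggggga
Per3: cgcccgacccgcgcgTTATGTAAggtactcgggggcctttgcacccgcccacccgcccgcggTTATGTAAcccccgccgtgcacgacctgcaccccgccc
Tef: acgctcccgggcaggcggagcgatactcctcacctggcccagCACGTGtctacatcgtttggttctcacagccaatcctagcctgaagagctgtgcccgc

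Genes on the lipid lists were called in small number, each of them higher at ZT9. Of the 15 tested members of the lipoprotein lipase pathway only Lpl (ENSMUSG00000015568, chr8:68880491-68907448), the enzyme that frees fatty acids from circulating triglyceride, was called, beside 1.08% of all tested genes called higher. The ZT6 mice had 2615, 2779, 3089.96 and 3622 CPM and the ZT9 mice 5408, 4998, 4023 and 4334 CPM. All ZT9 mice lay above all ZT6 mice, and the mean rose 1.55-fold from 3027 ± 443 to 4691 ± 628 CPM (SD, n = 4 each, log2 fold change 0.63, SE 0.12, adjusted p 0.00697). The call was kept whichever single library was left out.

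The neighbouring steps of Lpl were not called: means were 3167 CPM at ZT3 and 4819 CPM at ZT12, with log2 fold changes of -0.07 (ZT3 to ZT6) and 0.04 (ZT9 to ZT12). With lane as a factor the fitted difference was 0.08 (adjusted p 0.848).

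Partners of the lipase were not called. Angptl4, its inhibitor, had 261, 388, 362 and 492 CPM at ZT6 and 162, 321, 144 and 139 CPM at ZT9, with replicate 2 of ZT9 apart from the other ZT9 mice (-0.97 (adjusted p 0.288)). Gpihbp1, which anchors the lipase on capillaries, was at -0.15 (adjusted p 0.577) on the log2 scale. Cd36, a fatty acid transporter, was at 0.15 (adjusted p 0.301), Angptl8, which acts with other ANGPTL proteins on the lipase, at 0.24 (adjusted p 0.869), Pltp, the phospholipid transfer protein, at 0.12 (adjusted p 0.694) and Vldlr, the very low density lipoprotein receptor, at 0.29 (adjusted p 0.218). The median of the 15 genes was 0.15, and 10 of them were above 0.

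Around the lipid droplet 1 of 11 droplet proteins, 3 of 8 lipolysis genes and 1 of 12 triglyceride synthesis genes were called, all higher, beside 1.08% of all tested genes. Cidec, which fuses droplets into larger ones, had 440.1, 529.7, 594 and 689 CPM at ZT6 and 866, 946, 835 and 888 CPM at ZT9 (log2 fold change 0.65, SE 0.14, adjusted p 0.0109), and without replicate 1 of ZT6 the adjusted p was 0.0512. Pnpla2, the triglyceride lipase ATGL, had 2327, 2593, 2511 and 2549 CPM at ZT6 and 2838, 3120.1, 2852 and 2938 CPM at ZT9. The mice did not overlap in either gene, but the change of Pnpla2 was small (1.18-fold, log2 fold change 0.24, SE 0.06, adjusted p 0.0272), and without replicate 1 or 3 of ZT6 or replicate 2 or 4 of ZT9 the adjusted p was 0.0662 to 0.109.

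G0s2 encodes the inhibitor of ATGL. Its ZT6 mice lay close together at 94.4, 109, 111 and 99.5 CPM and its ZT9 mice ranged widely at 142, 299, 229 and 348 CPM, without overlap (2.45-fold, log2 fold change 1.30, SE 0.33, adjusted p 0.0357). The call was lost more easily than that of the other lipid genes: without replicate 1, 2, 3 or 4 of ZT6 or replicate 2 or 4 of ZT9 the adjusted p was 0.0679 to 0.135. Ces1f, a carboxylesterase of lipid breakdown, went from 47.6, 50.7, 46.8 and 48.7 CPM to 110.2, 68.8, 58.5 and 65.7 CPM (log2 fold change 0.65, SE 0.14, adjusted p 0.0118), with replicate 1 of ZT9 highest, and without that library the log2 fold change of Ces1f was 0.41. Agpat1, which acylates lysophosphatidic acid on the way to triglyceride, went from 94.2, 99.3, 111 and 112 CPM to 132, 154, 113 and 137 CPM (log2 fold change 0.36, SE 0.08, adjusted p 0.0193), and without replicate 1 or 2 of ZT6 or replicate 2 or 4 of ZT9 the adjusted p was 0.0634 to 0.0851.

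Other droplet and lipolysis genes had no call. On the log2 scale Lipe, the hormone-sensitive lipase, was at -0.06 (adjusted p 0.89), Mgll, the monoglyceride lipase, at 0.32 (adjusted p 0.331), Abhd5, the ATGL coactivator, at 0.56 (adjusted p 0.3) and Ces1d at 0.15 (adjusted p 0.345). The droplet coat genes Plin4 (0.18 (adjusted p 0.637)) and Plin5 (0.10 (adjusted p 0.746)) were not called either, nor were Dgat2 (0.21 (adjusted p 0.49)) and Gpat4 (0.10 (adjusted p 0.834)) of triglyceride synthesis.

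The within-lane steps of these called lipid genes were not called. From ZT3 to ZT6 the log2 fold change was 0.00 for Cidec, -0.04 for Pnpla2, -0.08 for Ces1f, 0.05 for Agpat1 and -0.76 for G0s2. From ZT9 to ZT12 it was 0.22, 0.09, -0.07, 0.10 and 0.73. With lane as a factor their adjusted p ran from 0.369 for Cidec to 0.97 for G0s2, whose fitted difference was -0.06.

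Leptin (Lep, ENSMUSG00000059201, chr6:29060220-29073877), the hormone that reports fat stores, was the 1 adipokine called of 8 tested, beside 1.08% of all tested genes called higher. Its mice had 26, 23.1, 29.9 and 16.2 CPM at ZT6 and 72.6, 20.1, 211 and 149 CPM at ZT9. Replicate 2 of ZT9 lay inside the ZT6 range and the other 3 ZT9 mice far above it, so the groups overlapped (4.75-fold, log2 fold change 2.25, SE 0.45, adjusted p 0.0095). Leptin is also a marker of white adipocytes. The 7 white adipocyte markers summed to 47 to 74.5 CPM at ZT6 and to 145, 65.7, 273 and 191.5 CPM in replicates 1 to 4 of ZT9, and Hoxc9 and Tcf21 were at 0 in all 8 libraries. Lep is itself 1 of these 7, and the other 6 summed to 21.1, 51.5, 25.9 and 34.3 CPM at ZT6 and to 72.3, 45.6, 62.4 and 42.8 CPM at ZT9, where the groups overlapped. Retn, which encodes resistin, had 17.1, 46, 22.3 and 30.5 CPM at ZT6 and 61.6, 40.1, 54.6 and 35.9 CPM at ZT9 (0.73 (adjusted p 0.255)), and Agt, which encodes angiotensinogen, 0.836, 1.3, 0.393 and 1.23 CPM and 3.26, 2.08, 1.94 and 1.57 CPM (1.23 (adjusted p 0.165)). The part of white fat in these values was not tested. Adiponectin, made by brown and white adipocytes alike, was not called (Adipoq, 0.24 (adjusted p 0.231)). Leptin had a mean of 47.6 CPM at ZT3 and 134 CPM at ZT12, and with lane as a factor its fitted difference was -0.02 (adjusted p 0.992).

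Among the genes with the highest fold changes were the cytochrome P450 genes Cyp2f2 and Cyp2e1, whose enzymes oxidise small foreign compounds. Cyp2f2 had 0.836, 1.77, 1.12 and 1.95 CPM at ZT6 and 14.7, 5.15, 6.87 and 6.41 CPM at ZT9 (5.83-fold, log2 fold change 2.53, SE 0.50, adjusted p 0.00838). Cyp2e1 had 38.4, 129, 47.6 and 117 CPM at ZT6 and 309, 199.9, 329 and 209 CPM at ZT9 (3.14-fold, log2 fold change 1.65, SE 0.43, adjusted p 0.0397). Neither overlapped. Cyp2e1 was uneven within ZT6, with replicates 2 and 4 well above 1 and 3, and without replicate 1 or 3 of ZT6 or replicate 1, 3 or 4 of ZT9 the adjusted p was 0.0664 to 0.139. The summed white adipocyte markers other than Lep were higher in the same mice, replicates 2 and 4 of ZT6 and replicates 1 and 3 of ZT9. The part of white fat in Cyp2e1 was not tested.

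Igfals, which encodes the acid-labile subunit that holds insulin-like growth factors in the blood, had 4.3, 6.74, 4.09 and 5.51 CPM at ZT6 and 18.2, 17.7, 10.9 and 8.82 CPM at ZT9 (2.7-fold, log2 fold change 1.43, SE 0.28, adjusted p 0.0075). For these 3 genes the log2 fold changes from ZT3 to ZT6 were -0.78, -0.88 and -0.67, and from ZT9 to ZT12 -0.26, -0.03 and -0.05, none called. Foxo6, a forkhead transcription factor, had the highest fold change of the genes without overlap and with a mean of at least 1 CPM. It had 0.119, 0.532, 0.561 and 0.39 CPM at ZT6 and 1.11, 1.04, 4.98 and 5.44 CPM at ZT9, with replicates 3 and 4 of ZT9 far above replicates 1 and 2 (log2 fold change 2.94, SE 0.70, adjusted p 0.0221), and without replicate 1 or 2 of ZT6 or replicate 3 or 4 of ZT9 the adjusted p was 0.0515 to 0.0875. At ZT12 its mean was 0.988 CPM.

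**Figure D4:**
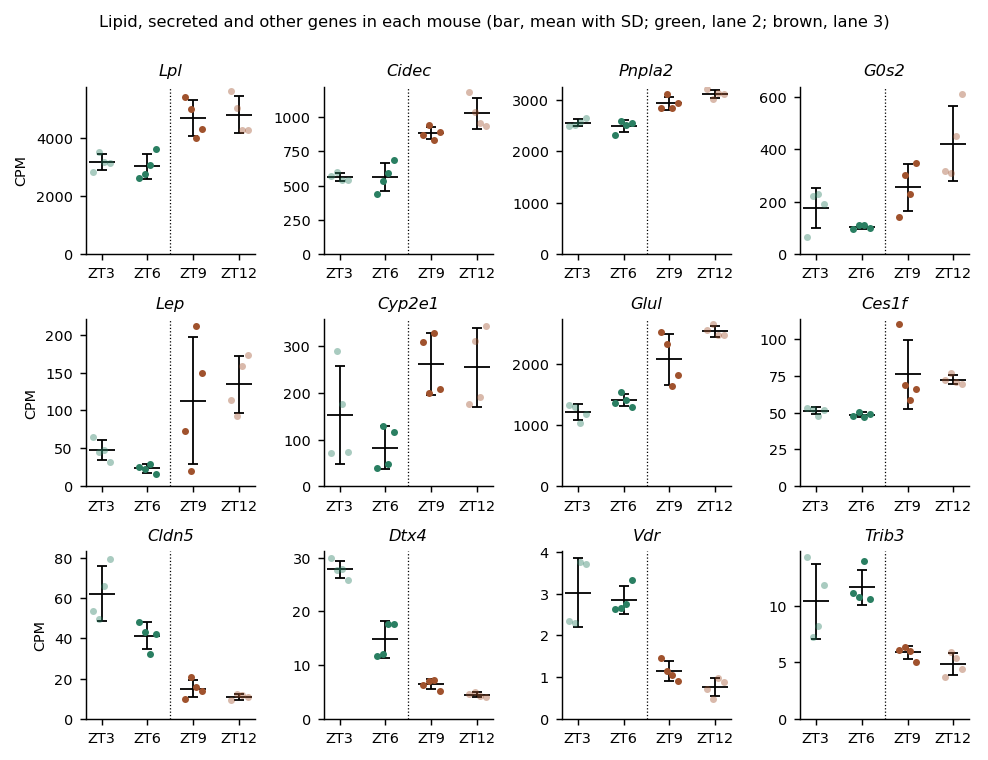
CPM (y axis) of 12 lipid, secreted and other genes in each mouse at ZT3, ZT6, ZT9 and ZT12 (x axis), with mean and SD, lane 2 in green, lane 3 in brown and a dotted line between the lanes. Lpl, Cidec and Pnpla2 are higher in every ZT9 mouse than in every ZT6 mouse, Lep is low in 1 ZT9 mouse (replicate 2), and Dtx4 also falls between ZT3 and ZT6.

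Of 15 genes of amino acid breakdown and glutamine metabolism 2 were called, both higher, beside 1.08% of all tested genes. Glul (ENSMUSG00000026473, chr1:153899944-153909723) encodes glutamine synthetase. Its mice had 1362, 1539, 1417 and 1303 CPM at ZT6 and 2516, 2326, 1636 and 1813 CPM at ZT9, without overlap (log2 fold change 0.56, SE 0.14, adjusted p 0.0279), and without replicate 1, 3 or 4 of ZT6 or replicate 1 or 2 of ZT9 the adjusted p was 0.0627 to 0.0968. A processed copy, Glns-ps1, may take part of its reads. The mean of Glul was 1213 CPM at ZT3 and 2533 CPM at ZT12. The window before the start of Glul, at chr1:153899829-153899928 on the plus strand, holds a ROR element, shown for this abundant gene in capitals.
Glul: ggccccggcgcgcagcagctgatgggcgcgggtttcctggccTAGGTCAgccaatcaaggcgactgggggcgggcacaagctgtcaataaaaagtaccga

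Ivd, the isovaleryl-CoA dehydrogenase of leucine breakdown, had 297, 293, 305 and 321 CPM at ZT6 and 414, 389.8, 361 and 397 CPM at ZT9. The groups were clearly apart although the means differed only 1.28-fold (log2 fold change 0.36, SE 0.08, adjusted p 0.013), and without replicate 4 of ZT9 the adjusted p was 0.0502. Prodh, the proline dehydrogenase, is on no list and was picked after its values were seen, as a gene called in the 8 libraries alone. It had 18.5, 19.7, 20.5 and 21.3 CPM at ZT6 and 30.8, 34.7, 47.8 and 41 CPM at ZT9 (1.93-fold, log2 fold change 0.95, SE 0.15, adjusted p 0.00123, 0.0421 in the 8 libraries alone).

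Genes of hormone signalling were called singly. Nr3c1 encodes the glucocorticoid receptor. It had 108, 96.9, 122 and 122 CPM at ZT6 and 166, 131, 144 and 146 CPM at ZT9 (log2 fold change 0.38, SE 0.09, adjusted p 0.0164), and without replicate 1 or 2 of ZT6 or replicate 1 or 4 of ZT9 the adjusted p was 0.0517 to 0.0714. Klf9, a transcription factor induced by glucocorticoids, was nearly uniform at ZT6, with 82, 88.4, 86.4 and 84.9 CPM at ZT6 and 102, 125, 128 and 121 CPM at ZT9 (log2 fold change 0.48, SE 0.11, adjusted p 0.017), and without replicate 1 of ZT6 or replicate 4 of ZT9 the adjusted p was 0.0575 to 0.0602. These were 2 of 14 glucocorticoid genes, beside 1.08% of all tested genes called higher. Fkbp5, another induced gene, had 3.4, 5.91, 4.04 and 5.79 CPM at ZT6 and 7.45, 5.27, 14.2 and 8.28 CPM at ZT9 and was not called (0.88 (adjusted p 0.246)).

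In the insulin and fasting list 1 of 16 genes was called, higher, beside 1.08% of all tested genes. Akt1, a kinase of the insulin pathway, had 74.3, 75.6, 87.9 and 104 CPM at ZT6 and 108, 137, 117 and 109 CPM at ZT9 (log2 fold change 0.47, SE 0.10, adjusted p 0.0103). Irs2, an insulin receptor substrate, had 38.9, 30.5, 29.9 and 32 CPM and 13.5, 57.1, 24.9 and 23.1 CPM with replicate 2 of ZT9 on its own (-0.15 (adjusted p 0.95)). Emcn, the sialomucin endomucin of capillary and venous endothelium, was the 1 of 9 endothelial markers called (1.08% of all tested genes were called higher), with 23.7, 24.2, 23.7 and 31 CPM and 33, 30.7, 33.4 and 34.3 CPM (log2 fold change 0.36, SE 0.09, adjusted p 0.0319). It overlapped through replicate 4 of ZT6, and without replicate 1, 2 or 3 of ZT6 or replicate 1, 3 or 4 of ZT9 the adjusted p was 0.0548 to 0.112. The summed endothelial markers ran from 1087 to 1395 CPM at ZT6 and from 953.5 to 1181 CPM at ZT9. In none of Nr3c1, Klf9, Akt1 and Emcn was a neighbouring step called, with log2 fold changes of -0.27, -0.06, -0.04 and -0.22 from ZT3 to ZT6.

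Among genes lower at ZT9, Cldn5 (ENSMUSG00000041378, chr16:18776847-18778262), a tight junction protein of endothelial cells, was lower in every ZT9 mouse than in every ZT6 mouse. Cldn5 was named by its fold change, and groups without overlap were a condition of that choice. It had 48, 42.9, 32.2 and 42.2 CPM at ZT6 and 9.96, 20.6, 15.8 and 13.7 CPM at ZT9, a 2.75-fold lower mean (log2 fold change -1.46, SE 0.30, adjusted p 0.00992). The groups stood far apart, and the call held in the 8 libraries alone (adjusted p 0.0421). Dtx4, a ubiquitin ligase of the Deltex family, had 11.7, 12, 17.7 and 17.7 CPM at ZT6 and 6.29, 7.06, 7.31 and 5.14 CPM at ZT9 (2.29-fold lower, log2 fold change -1.20, SE 0.15, adjusted p 5.61e-05). This was a continued fall, from 27.8 CPM at ZT3 within lane 2 (log2 fold change -0.91, adjusted p 0.000585), and Dtx4 was called with lane as a factor (-0.85, adjusted p 2.31e-05).

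Trib3, a pseudokinase that binds AKT and is induced by stress, was the 1 of 20 stress response genes called, beside 0.877% of all tested genes called lower. It had 11.2, 10.8, 14 and 10.6 CPM at ZT6 and 6.06, 6.37, 6.03 and 5.02 CPM at ZT9 (1.98-fold lower, log2 fold change -0.99, SE 0.21, adjusted p 0.0112), was called in the 8 libraries alone (0.0409), and without replicate 4 of ZT9 the adjusted p was 0.051. Vdr, the vitamin D receptor, had 2.63, 2.66, 2.75 and 3.34 CPM at ZT6 and 1.46, 1.16, 1.05 and 0.907 CPM at ZT9 (2.49-fold lower, log2 fold change -1.31, SE 0.27, adjusted p 0.0106), and without replicate 4 of ZT9 the adjusted p was 0.0502. Fst, which encodes the activin-binding protein follistatin, had 8.18, 7.87, 10.9 and 10.1 CPM at ZT6 and 4.72, 4.63, 4.1 and 3.87 CPM at ZT9 (2.14-fold lower, log2 fold change -1.10, SE 0.27, adjusted p 0.0281). Fst was picked after its values were seen, as a gene called in the 8 libraries alone (adjusted p 0.0421). Without replicate 3 or 4 of ZT6 or replicate 3 or 4 of ZT9 its adjusted p was 0.0523 to 0.0887. The mice of ZT6 and ZT9 did not overlap in any of the 3 genes, which for Vdr was a condition of its choice by fold change.

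Tgfa and Vipr2 were also lower at ZT9. Tgfa, a ligand of the epidermal growth factor receptor, had 4.66, 2.6, 3.7 and 3.06 CPM at ZT6 and 1.11, 2.2, 1.22 and 1.63 CPM at ZT9 (log2 fold change -1.18, SE 0.28, adjusted p 0.0212), and without replicate 1 or 3 of ZT6 or replicate 1, 3 or 4 of ZT9 the adjusted p was 0.0548 to 0.0892. Vipr2, a receptor for vasoactive intestinal peptide, had 1.43, 1.48, 1.23 and 1.73 CPM and 0.815, 0.405, 0.886 and 0.544 CPM (log2 fold change -1.14, SE 0.28, adjusted p 0.0264), and without replicate 1, 2 or 4 of ZT6 or replicate 2 or 4 of ZT9 the adjusted p was 0.0568 to 0.0915. In both genes the lowest ZT6 mouse was above the highest ZT9 mouse, at a level of only a few CPM. Both were named by fold change, for which this lack of overlap was a condition.

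Other genes were named for their fall in CPM among called genes without overlap. Aqp7, the channel through which adipocytes release glycerol, had 179, 177, 169.6 and 213 CPM at ZT6 and 119.96, 154, 142 and 129 CPM at ZT9 (1.36-fold lower, log2 fold change -0.44, SE 0.11, adjusted p 0.0327), and without replicate 1, 2 or 4 of ZT6 or replicate 1 or 4 of ZT9 the adjusted p was 0.0567 to 0.103. Anp32a, an acidic nuclear phosphoprotein, was steadier. Its mice had 160.1, 165, 142 and 133 CPM at ZT6 and 92.3, 106, 109 and 108 CPM at ZT9 (1.45-fold lower, log2 fold change -0.53, SE 0.08, adjusted p 0.00025).

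Ybx2, an RNA-binding protein with a cold-shock domain, had 97.5, 78.4, 102 and 92.6 CPM at ZT6 and 55, 67.6, 65 and 61.7 CPM at ZT9 (log2 fold change -0.57, SE 0.13, adjusted p 0.0212), and without replicate 1 or 3 of ZT6 or replicate 1 or 4 of ZT9 the adjusted p was 0.0606 to 0.0753. Rflnb, a filamin-binding protein, had 101, 88.6, 86.3 and 112 CPM and 77.3, 71.3, 53.5 and 56.3 CPM (log2 fold change -0.58, SE 0.12, adjusted p 0.00841), and Mif4gd 99.98, 99.7, 103 and 105 CPM and 66.2, 96.5, 61.6 and 66.7 CPM (log2 fold change -0.49, SE 0.10, adjusted p 0.0106), with replicate 2 of ZT9 just under the ZT6 mice. Clpx, the unfolding subunit of a mitochondrial matrix protease, had 147, 159, 163 and 174 CPM at ZT6 and 133, 139.5, 127 and 126 CPM at ZT9. The groups were close together without overlap (1.22-fold lower, log2 fold change -0.29, SE 0.08, adjusted p 0.0407), and without replicate 2, 3 or 4 of ZT6 or replicate 1, 3 or 4 of ZT9 the adjusted p was 0.0606 to 0.119. Clpx was called with lane as a factor (-0.29, adjusted p 0.0152).

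The lowest fold changes of all belonged to the predicted genes Gm10800 and Gm26870, which had more than 1 CPM in the mice of ZT6 and in no mouse of another time point. Gm10800 had 54, 57, 64 and 59 counts in the ZT6 mice and 1, 0, 0 and 0 in the ZT9 mice, a ratio of summed counts of 232.7 with an exact 95% interval from 41.4 to 9229 (counting error only). Gm26870 had 43, 59, 66 and 38 counts at ZT6 and 2, 1, 1 and 1 at ZT9 (ratio 41, interval 17.3 to 127.5). At ZT3, on the same lane as ZT6, both were at 0 in all 4 mice, and the highest level of any mouse at the 7 other time points was 0.661 CPM for Gm10800 and 0.631 CPM for Gm26870. Both passed the filter on low counts through the ZT6 mice alone, and neither was tested under the filter at a mean of 1 CPM. They were called in every alternative fit in which they were tested, but the sign turned with lane as a factor (6.69 and 5.86). That fit is a smooth 24 h curve with lane levels, which cannot follow a level raised at a single time point. The annotation places Gm26870 across several other predicted genes on the other strand, and copies of such genes can share reads, so these counts are uncertain. Tmem132b, a membrane protein gene, had 8.3, 7.69, 6.34 and 1.17 CPM at ZT6 and 0.874, 0.521, 0.83 and 0.423 CPM at ZT9, where replicate 4 of ZT6 was far below the other ZT6 mice (log2 fold change -3.13, SE 0.60, adjusted p 0.00675). Its mean was 0.67 CPM at ZT3 and 0.566 CPM at ZT12, and at ZT21 its mice reached 3.17 CPM.

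The remaining genes named by fold change were noncoding or pseudogenes at low level. Gm9761, a processed pseudogene, fell from 10.8, 10.9, 9.76 and 8.8 CPM to 4.78, 5.38, 3.99 and 3.08 CPM (log2 fold change -1.22, SE 0.17, adjusted p 0.000163). Gm37607 fell from 3.64, 3.9, 3.42 and 2.84 CPM to 1.86, 1.85, 1.05 and 1.51 CPM (log2 fold change -1.13, SE 0.29, adjusted p 0.0327), and without replicate 1, 2 or 3 of ZT6 or replicate 3 or 4 of ZT9 the adjusted p was 0.0729 to 0.0929. Reads of a pseudogene can come from its parent gene, so these assignments are uncertain. Gm18300, another processed pseudogene, rose from 0.298, 0.651, 0.336 and 0.78 CPM to 1.57, 1.62, 1.38 and 2.05 CPM (log2 fold change 1.67, SE 0.37, adjusted p 0.0162), and without replicate 1 or 3 of ZT6 or replicate 4 of ZT9 the adjusted p was 0.0625 to 0.0671. Gm45051, annotated antisense, rose from 0.358, 0.473, 0.841 and 0.78 CPM to 1.51, 1.22, 1.66 and 1.39 CPM (log2 fold change 1.22, SE 0.27, adjusted p 0.0149), and without replicate 1 or 2 of ZT6 the adjusted p was 0.0547 to 0.0646. The transcript 2010016I18Rik rose from 1.43, 1.77, 2.02 and 2.28 CPM to 4.72, 3.07, 4.65 and 4.29 CPM (log2 fold change 1.15, SE 0.26, adjusted p 0.019), and without replicate 1 or 2 of ZT6 or replicate 4 of ZT9 the adjusted p was 0.0548 to 0.0772.

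Of the 15 genes called in the 8 libraries alone, Papss2, Sfxn2, Plekhg1, Cbfa2t3, Dynll1 and B230354K17Rik are described here, chosen after their values were seen. Sfxn2, a mitochondrial sideroflexin, had 9.49, 10.1, 9.76 and 8.97 CPM at ZT6 and 14.7, 16.2, 16.3 and 15.2 CPM at ZT9 (log2 fold change 0.70, SE 0.10, adjusted p 0.000197). Papss2, which makes the sulphate donor PAPS, had 30.7, 27.1, 28.2 and 32.1 CPM and 41.5, 47.4, 47.3 and 52.2 CPM (log2 fold change 0.67, SE 0.11, adjusted p 0.000805). In both the mice within a group lay close together and the groups far apart. Dynll1, a dynein light chain, had 35.5, 35.2, 33.1 and 32.3 CPM at ZT6 and 21.7, 25.1, 23.6 and 22.4 CPM at ZT9 (log2 fold change -0.55, SE 0.14, adjusted p 0.0321), and without replicate 1, 2 or 3 of ZT6 or replicate 1, 3 or 4 of ZT9 the adjusted p was 0.0528 to 0.0887. Cbfa2t3, a transcriptional corepressor, had 36.4, 35.8, 39.5 and 37 CPM and 25.5, 26.1, 24.4 and 25 CPM (log2 fold change -0.56, SE 0.13, adjusted p 0.0193), and without replicate 3 of ZT6 or replicate 4 of ZT9 the adjusted p was 0.0606 to 0.0638. Plekhg1 had 18.5, 16.1, 19 and 16.9 CPM and 9.67, 11.3, 12 and 9.37 CPM (log2 fold change -0.74, SE 0.15, adjusted p 0.0108), and without replicate 4 of ZT9 the adjusted p was 0.0502. The long noncoding RNA B230354K17Rik had 26.1, 23.9, 28.6 and 27.5 CPM and 17, 16.6, 18.2 and 17.9 CPM (log2 fold change -0.61, SE 0.11, adjusted p 0.00538). For Plekhg1 the fall had begun within lane 2, with a log2 fold change of -0.69 from ZT3 to ZT6 (adjusted p 0.0134).

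Over the 28 pathway lists 478 genes were tested, 21 were called higher and 4 lower (5.23% in all, beside 1.95% of all tested genes), 12 of them clock genes. The lists were chosen with earlier results of these data known, and these shares were not tested. No gene was called in 15 of the lists, among them the thermogenic genes. Among the 18 tested thermogenic genes the log2 fold changes ran from -0.57 to 0.44. For Ucp1 it was 0.23 (adjusted p 0.786). Dio2, which makes active thyroid hormone, had 14.5, 17.9, 34.1 and 42.5 CPM at ZT6 and 58.6, 47.9, 12 and 15.7 CPM at ZT9 (0.30 (adjusted p 0.892)), and Ppargc1a, the coactivator of mitochondrial biogenesis, 47.6, 25.5, 91.7 and 72.9 CPM and 32.3, 33.2, 48.6 and 46.2 CPM (-0.57 (adjusted p 0.313)). In both genes the mice of the time points overlapped.

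None of 36 nuclear genes of complex I was called, and their log2 fold changes stayed between -0.14 and 0.07. In the 39 nuclear genes of complexes II to V the median was -0.02, and in the 15 mitochondrially encoded genes 0.15, with 0.15 (adjusted p 0.52) for mt-Co1, 0.07 (adjusted p 0.793) for mt-Cytb and -0.15 (adjusted p 0.385) for mt-Nd1. For 24 genes of fatty acid uptake and oxidation the median was 0.07, for 18 genes of the tricarboxylic acid cycle 0.00033 and for 23 genes of glucose uptake and glycolysis -0.03. All these lists lay close to the median of all tested genes.

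Lipogenesis had the lowest median apart from the clock activators, -0.37 over 16 genes, with 3 genes above 0 and none called. Acly, which supplies acetyl-CoA for fatty acid synthesis, had 6849, 6024, 2867 and 933 CPM at ZT6 and 3579.7, 1769, 820.1 and 1128 CPM at ZT9 (-1.19 (adjusted p 0.255)). Fasn, the fatty acid synthase, had 35049.7, 32249, 21189.8 and 6034 CPM at ZT6 and 29066, 20136, 4413 and 11624 CPM at ZT9 (-0.53 (adjusted p 0.67)). Mice of the same time point differed several-fold in both, with replicate 4 of ZT6 far under the others. Interferon-stimulated genes followed with a median of -0.34 and 1 of 15 above 0, again without a call. Of 14 brown fat transcription factors Klf9 alone was called (1.08% of all tested genes were called higher), and Pparg (-0.17 (adjusted p 0.704)), Cebpa (-0.05 (adjusted p 0.922)) and Ppara (0.46 (adjusted p 0.577)) were not.

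**Figure D5:**
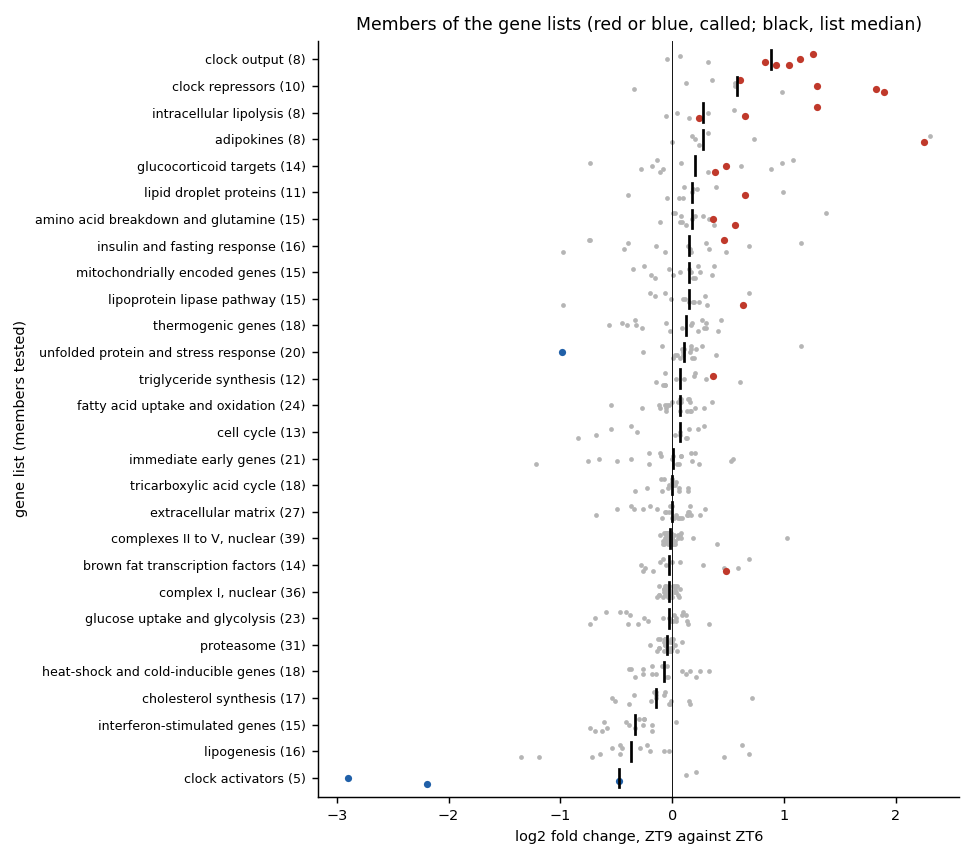
Log2 fold change of ZT9 against ZT6 (x axis) for every tested member of the 28 pathway lists (y axis, number of members tested in brackets), with called members in red (higher, 21 genes, Klf9 in both of its lists) or blue (lower, 4 genes) and the list median as a black bar. Clock output and clock repressors have the highest medians (0.88 and 0.58) and clock activators the lowest (-0.47).

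Some of the named genes share their place with another annotated gene on the opposite strand, among them Arntl, Cry2, Dbp, Tef, Usp2, Agpat1, Cyp2f2, Mif4gd, Tgfa and Fst. The sources used here give no strand setting for the counting, so reads of such pairs cannot be told apart. The mice of a time point are separate animals, and unless another fit is named the p-values rest on the spread between mice pooled over all 8 time points.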

How the data were processed

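RNA of iBAT was measured in 32 mice, 1 library each, of which 4 at ZT6 and 4 at ZT9 are compared here. Per the methods of the study and the submitters' processing notes, the authors aligned paired-end reads to mm10 with GSNAP (version 2017-09-11) and counted reads per Ensembl gene with HTSeq (version 0.6.1). The strand setting of the counting is not given in the sources used here. The deposited values are raw read counts for 50686 genes, 20100 of them without a count in any library. Groups, replicate numbers and lanes were taken from the labels. Coordinates and overlaps come from GENCODE vM21 on GRCm38, an annotation later than the one counted on. It or a table of gene names gave 50376 genes a symbol.

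Genes were filtered with filterByExpr by time point, leaving 15505, and scaled with TMM. A quasi-likelihood model with 1 mean per time point was fitted over all 32 libraries with edgeR 4.0.16 (R 4.3.3), and ZT9 minus ZT6 was tested with Benjamini-Hochberg adjustment over all tested genes at 0.05. The SE was derived from the log2 fold change and its F statistic. CPM values use TMM-scaled totals. The share of mitochondrial counts was tested by exact permutation (two-sided), which cannot give a p below 0.0286 for 4 against 4 mice. In counts simulated from these libraries, the test of ZT9 against ZT6 recovered 84 of 100 genes changed 2-fold and 97 of 100 changed 4-fold. There were 11 false calls over 15505 genes. The changed genes were drawn from those with an average log2 CPM above 1. Changes under 2-fold were not simulated, nor were shifts shared by many genes, such as those of muscle transcripts.

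Alternatives were DESeq2 1.42.0 (size factors and Wald test), library-size scaling, removal of mitochondrially encoded genes, other filters on low counts, fits on 8 or 24 libraries, a replicate block, a test against a 1.5-fold change, a 24 h cosine with lane as a factor and leaving out each library. Leaving out the 3 libraries with skeletal muscle transcripts was chosen after seeing the data. Replicate numbers name mice and did not pair them. Counts of same-time libraries differed by far more than sampling noise (mean chi-square per gene 10.5 to 107), so each was kept as a separate sample.

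The members and gene lists were chosen with earlier results of these data known. Genes are named if they belong to a list, or by size among called genes that averaged at least 1 CPM over the 8 libraries and whose groups did not overlap. From these the 12 top and 12 bottom log2 fold changes were taken, with the 6 largest rises and 6 largest falls in CPM. A few others, identified as such, were chosen after their values were seen. Promoter sequences are from RefSeq (GRCm38.p6).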

Additional observations from a re-analysis of the deposited data

Results flagged for a closer look

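A single mouse stood apart from the other 3 of its time point (Dixon's test at the 95% level) in 13 of 218 groups of 4 mice examined, 11 times on the high side and 2 times on the low side. Chance flags about 1 in 20 groups, or 10.9 of these.

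At ZT9, replicate 2 had 320.5 CPM of Angptl4, the others 138.6 to 162.2 CPM. It also had 206.8 CPM of Plin5 (others 146.3 to 149.4) and 96.5 CPM of Mif4gd (others 61.6 to 66.7). Replicate 1 of ZT9 was low in Anp32a, at 92.3 CPM against 106.3 to 108.8, and in Lipe, at 1254 CPM against 1481 to 1511. The same mouse had 0.0582 CPM of Gm10800, where the others were at 0, and 0.116 CPM of Gm26870 (others 0.0554 to 0.0604), which amounts to 1 and 2 counts. In replicate 3 of ZT9 the summed macrophage markers reached 361.6 CPM against 81.4 to 120.5 CPM.

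At ZT6, replicate 3 had 199.99 CPM of Bhlhe40 (others 113.4 to 122.4) and 13.96 CPM of Trib3 (others 10.6 to 11.2). Replicate 4 had 31.02 CPM of Emcn (others 23.7 to 24.2) and 3.34 CPM of Vdr (others 2.63 to 2.75). The summed skeletal muscle markers of replicate 2 were 2084 CPM against 56.7 to 61.2 CPM in the other ZT6 mice. At ZT9 replicates 1 and 4 were both high in muscle markers, so that neither stood apart from the rest. Without the mouse that stood apart, Anp32a (adjusted p 0.00152), Mif4gd (8.12e-05), Trib3 (0.0451), Vdr (0.0247) and Emcn (0.00465) were still called by edgeR's quasi-likelihood test with Benjamini-Hochberg adjustment. In Mif4gd and Emcn that mouse was the one of its group nearest the other group. Leaving it out could only widen the difference, so these 2 calls are no check.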

How the results depend on the processing

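The number of called genes was 303 (167 higher, 136 lower) and changed by over 1.5 times under these alternatives: 490 (283 and 207) with the DESeq2 Wald test, 188 (100 and 88) in the 24 libraries of lanes 2 and 3, 184 (103 and 81) without the filter on low counts, 41 (29 and 12) without the 3 libraries with muscle transcripts, 35 (13 and 22) with a 24 h cosine and lane as a factor, 15 (4 and 11) in the 8 libraries alone, and 6 (2 and 4) in the test against a 1.5-fold change. Leaving out 1 library gave 101 to 350 genes, 63 to 195 higher and 38 to 155 lower. DESeq2 size factors (316), removal of mitochondrially encoded genes (304), a filter at a mean of 1 CPM (320) and library-size scaling (242) stayed within 1.5 times.

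A replicate block over all 32 libraries gave 302 genes (166 higher, 136 lower), 279 of them shared, and in the 8 libraries alone 2 genes (0 higher, 2 lower), Gm10800 and Gm26870. The replicate numbers did not pair the mice: deviations of same-numbered libraries correlated at -0.544 to 0.0868, and those of other numbers at -0.293 to 0.518.

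The step from ZT3 to ZT6 gave 322 genes, and 214 in the 24 libraries of lanes 2 and 3. The step from ZT9 to ZT12 gave 0 genes, 7 without the filter and 24 with the DESeq2 Wald test. The mitochondrial share differed by 0.745 percentage points, and by -0.296 to 1.93 with 1 library left out, negative without replicate 3 or replicate 4 (-0.0526) of ZT9.

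Over 57 called genes named in the text and all alternatives, 1192 values were computed: 835 kept direction and call, 338 kept direction only and 19 reversed, all with lane as a factor. These log2 fold changes were -0.0191 (Akt1), 0.24 (Cbfa2t3), -0.0395 (Cyp2f2), 0.00863 (Dynll1), -0.29 (Foxo6), 0.22 (Fst), -0.0613 (G0s2), 6.69 (Gm10800), -0.48 (Gm18300), 5.86 (Gm26870), 0.00725 (Gm37607), 0.18 (Gm9761), -0.18 (Igfals), -0.0336 (Ivd), -0.17 (Klf9), -0.0218 (Lep), 0.0683 (Mif4gd), 0.46 (Tmem132b) and 0.15 (Vipr2). The causes were not tested. Calls were also lost with library-size scaling for Aqp7, Cyp2e1, Ybx2 and Dynll1, without the filter for Pnpla2, Emcn, Aqp7, Vipr2, Gm37607 and Clpx, with DESeq2 size factors for Clpx, and in 24 libraries for Pnpla2, G0s2, Glul, Emcn, Aqp7, Cyp2e1, Clpx and Dynll1. In a library 3 counts corresponded to 0.166 to 0.181 CPM, and values near that level rest on few counts.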

Other observations

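Several gene lists had no called gene. The 21 immediate early genes had a median log2 fold change of 0.00659 and ranged from -1.22 to 0.55, and the 18 heat-shock and cold-inducible genes had a median of -0.07. Cholesterol synthesis had a median of -0.14 over 17 genes with 3 above 0, the proteasome -0.05 over 31 genes with 4 above 0, extracellular matrix -0.0007 over 27 genes and the cell cycle 0.07 over 13 genes. In the unfolded protein and stress response 17 of 20 genes were above 0 (median 0.10), although its only called member, Trib3, was lower at ZT9. Over all tested genes 50.7% were above 0.

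Of the 10 marker lists 8 had no called gene. All 13 skeletal muscle markers were above 0 (median 0.98), with high sums in 1 ZT6 and 2 ZT9 libraries. All 10 macrophage markers were above 0 (median 0.40), with the highest sum in replicate 3 of ZT9. The 4 tested white adipocyte markers, with Lep called, were all above 0 (median 0.996). Erythroid markers had a median of 0.31, lymphoid markers 0.33, stromal fibroblast markers 0.05, pericyte and smooth muscle markers 0.12 and nerve and Schwann cell markers -0.12, while brown adipocyte markers were at 0.03 and endothelial markers at -0.14. In replicate 3 of ZT9 the sums of the erythroid (1136 CPM), stromal fibroblast (600.3 CPM), nerve (216.6 CPM), lymphoid (31 CPM) and white adipocyte (273 CPM) markers were also the highest of the 8 libraries.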
